A study of Mus musculus with 8 samples.

Results

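The transcriptomes compared here are those of mouse OT-I CD8+ T cells primed by either of the 2 kinds of migratory dendritic cell (DC), 5 of the 8 libraries of the study. OT-I cells are CD8+ T cells that all carry a single transgenic receptor specific for a peptide of ovalbumin. According to the labels, C57BL/6 OT-I cells were kept for 72 hours in culture plates with DC of a single subset that carried antigen, and the cells that had divided were sorted for RNA. The libraries were chosen by their labelled DC partner, with 3 libraries for migratory CD103+ DC (replicates 1, 2 and 3; the CD103 DC group) and 2 for migratory CD11b+ DC (replicates 2 and 3; the CD11b DC group). The other 3 libraries of the study came from priming with resident CD8a+ DC and enter here only where they help to place a value. Every group is thus a culture of dividing T cells with DC, of a fixed receptor and at a single time, and undivided or unprimed T cells were not analysed here. Whether libraries with the same partner derive from separate cultures or mice is not in the labels, so the p-values measure only the spread between libraries, which may be technical.

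Dendritic cells take up antigen in tissue, migrate to the lymph node and prime T cells there by showing peptide on MHC molecules together with costimulation and cytokines. The CD103+ subset is the migratory arm of the lineage known for showing exogenous antigen to CD8+ T cells, and the CD11b+ subset is best known for priming CD4+ T cells. Priming also sets where a T cell can travel later, through the sugars that bind selectins, through integrins and through chemokine receptors, and sets how far effector genes such as granzymes are switched on.

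Values are normalised read counts, that is reads per gene divided by a size factor for each library, and the 5 libraries held 17018777 to 20932603 reads. The sum over 12 CD8 T cell identity genes was 133434 to 139194 in the CD103 DC libraries and 131842 to 149891 in the CD11b DC libraries, and Cd8a itself stood at 37452, 37969 and 36954 against 34924 and 40072, so the markers of the labelled cell type were present in all 5. Mitochondrially encoded transcripts took 6.69% to 7.72% of reads in the CD103 DC libraries and 7.02% to 7.20% in the CD11b DC libraries. The sorted cells were not free of other transcripts. The 20 genes listed as shared DC markers summed to 14419 to 15644 in the CD103 DC libraries and 13596 to 17222 in the CD11b DC libraries, and part of that list is also expressed by T cells (Ccr7, Relb, Cd83).

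T cells primed by CD103+ DC carried more transcript of 3 enzymes that build selectin ligands and of the skin-associated chemokine receptor Ccr8, and less transcript of the gut-homing integrin Itga4/Itgb7, of the gut chemokine receptor Ccr9, of Gzmb and of 4 Gimap GTPases. The cell division genes Top2a, Mki67, Foxm1, Incenp and Clspn were also higher. Of 18971 genes with a mean normalised count of at least 1, 63 passed a Benjamini-Hochberg adjusted p under 0.05 in limma-trend on log2(normalised count + 1), which is 0.332% of the genes tested. Of these, 25 were higher (0.132%) with CD103+ DC and 38 lower (0.200%), and the libraries of the 2 groups did not overlap for any gene named below as higher or lower. Fold changes below are on the log2(normalised count + 1) scale, CD103 DC over CD11b DC. Counts of genes that rose, fell or passed are from the fit of all 8 libraries unless another fit is named.

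The length of that list depends on the libraries in the fit. The fit took its spread from all 8 libraries, and with only the 5 libraries of these groups 340 of 18782 genes passed (1.81%), 179 higher (0.953%) and 161 lower (0.857%), all 63 among them. On reads recovered from the normalised counts, edgeR called 23 genes higher (0.154% of 14931) and 40 lower (0.268%), 0.422% in all. DESeq2 called 200 higher (1.60% of 12536) and 167 lower (1.33%), 2.93% in all. The authors' deposited table has 189 higher (1.63% of 11560) and 150 lower (1.30%) at an adjusted p under 0.05, 2.93% in all. With a CD103 DC library left out, the calls fell to 5 (without replicate 1), 2 (without replicate 2) and 2 (without replicate 3), and Itga4 and Gimap4 were in each of these sets. With a CD11b DC library left out, 1 call (Lmna) was made without replicate 2 and 0 calls without replicate 3 in limma-trend, where the lone remaining library is assumed to vary like the other groups (without replicate 3, 1200 genes had an unadjusted p under 0.05 and edgeR made 1 call). All 63 genes kept their direction in each of these fits.

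**Figure D1:**
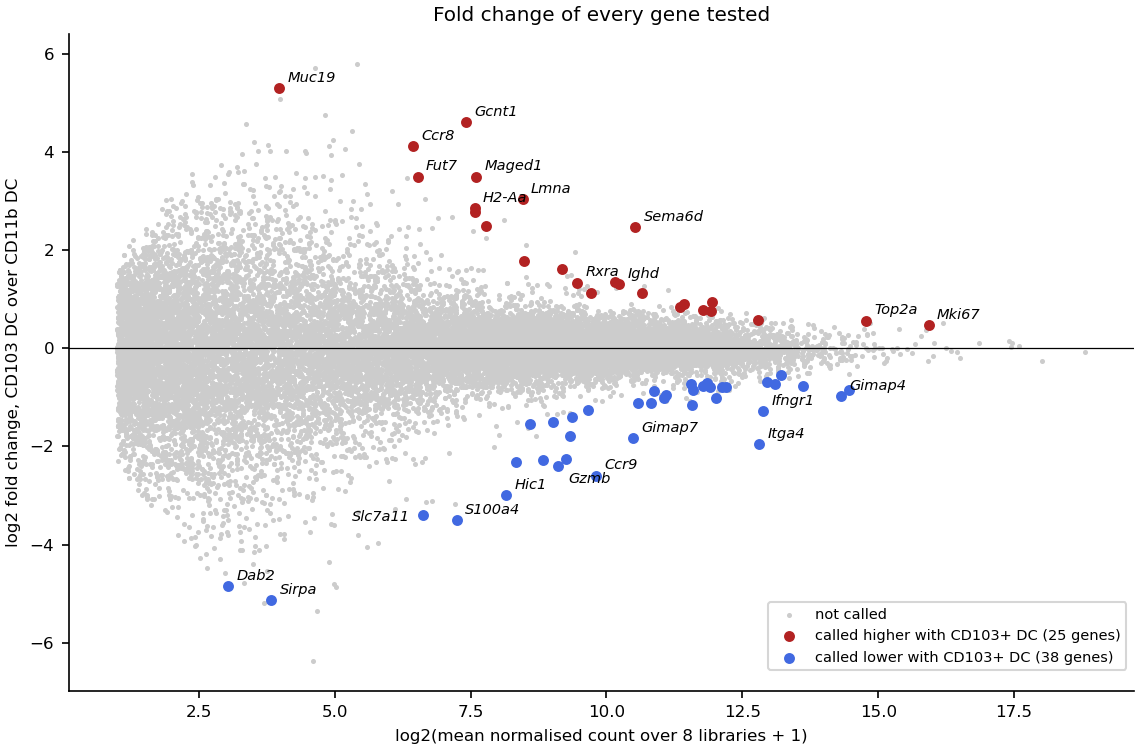
Each point is a gene, with its mean level over the 8 libraries on the x axis (log2 of the normalised count + 1) and its log2 fold change, CD103 DC over CD11b DC, on the y axis. Red points are the 25 genes called higher and blue points the 38 called lower with CD103+ DC. Muc19, Dab2 and Sirpa, at or near 0 reads in 1 group, have fold changes that depend on the pseudocount, and the called genes with high counts, such as Mki67, have small fold changes.

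Among 25 measured genes of selectin ligand synthesis, 3 rose with CD103+ DC and 0 fell, beside 0.132% and 0.200% of all genes tested. In the fit of 5 libraries 3 rose and 1 fell, where 0.953% and 0.857% of all genes did. Gcnt1 (ENSMUSG00000038843, chromosome 19), the enzyme that starts the core 2 branch on which selectin ligands of T cells are built, had 494, 418 and 323 normalised counts in the CD103 DC libraries, against 17.0 and 14.3 in the CD11b DC libraries. Fut7 (ENSMUSG00000036587, chromosome 2), the fucosyltransferase that completes the sialyl Lewis x group, had 173, 209 and 244 against 10.8 and 27.5. Every CD103 DC library lay far above every CD11b DC library for both genes, with fitted differences of 24.5-fold for Gcnt1 (log2 fold change 4.61, SE 0.67, adjusted p = 0.0120) and 11.3-fold for Fut7 (3.50, SE 0.66, adjusted p = 0.0425). Without CD11b DC replicate 2 the log2 fold change of Fut7 was 2.87, and without replicate 3 it was 4.14. B4galt5, a galactosyltransferase, had 3347, 3485 and 3566 against 1725 and 2002, a 1.86-fold difference (adjusted p = 0.0146).

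The list as a whole did not share that direction. The median log2 fold change over its 25 genes was -0.06, beside -0.00 over all genes tested, and 11 of the 25 lay above 0. Selplg, the core protein PSGL-1 on which these sugars sit, had 6405, 5939 and 6098 in the CD103 DC libraries against 8232 and 9336 in the CD11b DC libraries and did not pass (log2 fold change -0.51, adjusted p = 0.156). Gcnt4, a relative of Gcnt1, had 99.6, 155 and 85.8 against 15.2 and 34.1, also without overlap and without passing (adjusted p = 0.428). In the CD8a DC libraries Gcnt1 had 11.7, 63.5 and 20.3 and Fut7 had 15.2, 16.3 and 34.6, all below every CD103 DC library. For both genes the highest CD8a DC library lay above both CD11b DC libraries.

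Itga4, Itgb7, Ccr9 and Hic1 were lower with CD103+ DC. Itga4 (ENSMUSG00000027009; GRCm38 chr2:79255426-79333123), the alpha 4 integrin chain that lets T cells bind vessels of the gut and of inflamed tissue, had 2857, 2458 and 2643 normalised counts in the CD103 DC libraries, against 12350 and 8556 in the CD11b DC libraries. This was a 3.88-fold lower level (log2 fold change -1.96, SE 0.17, adjusted p = 0.000475) and the smallest adjusted p of all genes tested. Itgb7, the chain that pairs with it to form the receptor for the gut vessel protein MAdCAM-1, had 2843, 2809 and 3113 against 4756 and 4820 (1.64-fold lower, adjusted p = 0.0488). The fitted difference of Itgb7 was smaller than that of Itga4, and the difference between them was not tested.

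Ccr9, the receptor for the small intestinal chemokine CCL25, had 135, 126 and 244 in the CD103 DC libraries and 1304 and 731 in the CD11b DC libraries, a 6.04-fold lower level (log2 fold change -2.59, SE 0.40, adjusted p = 0.0129). Hic1, a transcriptional repressor known to be induced by retinoic acid in intestinal T cells, had 60.2, 43.0 and 73.6 against 491 and 437, a 7.93-fold lower level (-2.99, SE 0.43, adjusted p = 0.0120). For each of Itga4, Ccr9 and Hic1 the highest CD103 DC library lay well below the lowest CD11b DC library. Itga4 overlaps Cerkl and Ccr9 overlaps Lztfl1 on the opposite strand, and the strand setting of the counting is not given in the sources used here, so reads of these partners cannot be told apart. Rxra, the retinoid X receptor that pairs with retinoic acid receptors, moved the other way, with 889, 1094 and 1365 against 417 and 451 (2.53-fold higher, adjusted p = 0.0348). Of the 31 tested genes on the TGF-beta and retinoic acid list, Rxra was the 1 that rose and Hic1 the 1 that fell, and the median log2 fold change was -0.03. In the fit of 5 libraries 1 rose and 2 fell, where 0.953% and 0.857% of all genes did.

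Ccr8, a chemokine receptor associated with skin and with regulatory T cells, had 172, 146 and 131 in the CD103 DC libraries, against 16.1 and 3.3 in the CD11b DC libraries. The CD11b DC libraries differed from each other for this gene, and the log2 fold change of 4.13 (SE 0.66, adjusted p = 0.0146) was 5.12 without replicate 2 of that group and 3.13 without replicate 3. The 4 listed CD4 and regulatory T cell markers had a summed level of 532 to 617 in the CD103 DC libraries and 192 to 238 in the CD11b DC libraries. All 4 lay above 0 without overlap (median log2 fold change 1.54), beside 14.0% of all genes tested, and 0 passed. The part of these cells in the Ccr8 and Ccr4 values was not tested. Ccr4, another receptor of skin-homing T cells, had 774, 697 and 681 against 117 and 233 and missed the threshold (log2 fold change 2.11, adjusted p = 0.0640). S1pr1, which guides lymphocytes out of lymph nodes, had 2560, 2207 and 2169 against 3679 and 3854 (-0.71, adjusted p = 0.0984). In the fit of all 8 libraries 0.132% of all genes tested passed as higher and 0.200% as lower. In that fit, of 31 chemokine receptor and exit genes Ccr8 was the 1 that rose and Ccr9 the 1 that fell. Of 36 integrin and adhesion genes, 0 rose and 2 fell, Itga4 and Itgb7. The fit of 5 libraries passed 0.953% of all genes as higher and 0.857% as lower. There 4 chemokine receptor and exit genes rose and 4 fell, and 2 integrin and adhesion genes rose and 5 fell. Itgae, the alpha chain of CD103 on the T cell itself, had 7489, 7077 and 8414 against 5320 and 5978. It did not pass in the fit of all 8 libraries (adjusted p = 0.754) and did in the fit of the 5 (adjusted p = 0.0459). The CD8a DC libraries, which share in the spread of the larger fit, had 7898.5, 11940.6 and 3722.2.

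**Figure D2:**
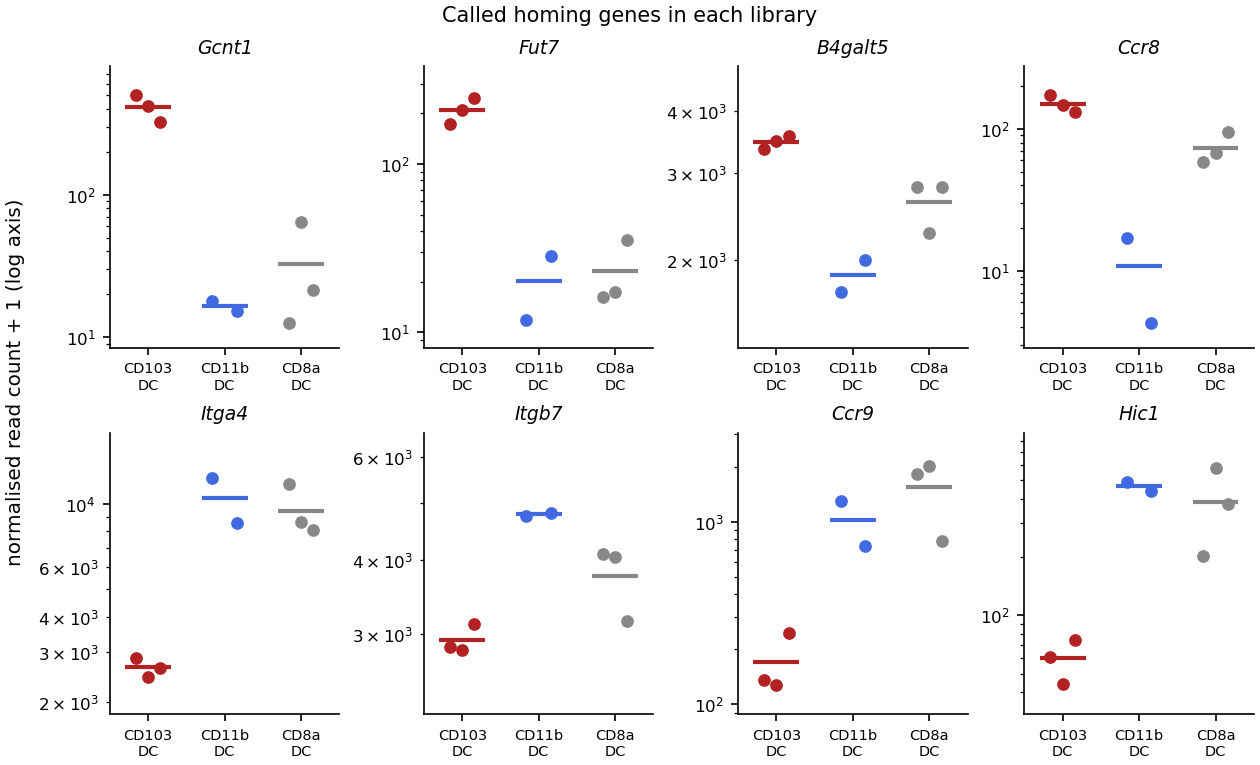
Each panel is a homing gene, with normalised read count + 1 on a log axis, a point for each library and a bar at the group mean, for T cells primed by CD103+, CD11b+ and CD8a+ DC. Gcnt1, Fut7, B4galt5 and Ccr8 are higher and Itga4, Itgb7, Ccr9 and Hic1 lower in the CD103 DC libraries than in the CD11b DC libraries, with no overlap.

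The effector genes Gzmb, S100a4 and Plac8 were lower with CD103+ DC, and of the cytokine genes 0 passed in the fit of all 8 libraries. Gzmb, the granzyme that triggers death of target cells, had 176, 332 and 212 in the CD103 DC libraries, against 1429 and 1045 in the CD11b DC libraries, a 5.27-fold lower level (log2 fold change -2.40, SE 0.42, adjusted p = 0.0253). S100a4, which binds calcium and marks effector cells, had 32.6, 54.2 and 37.3 against 551 and 397 (11.3-fold lower, adjusted p = 0.0169). Plac8, a small cysteine-rich protein of effector cells, had 172, 157 and 97.9 against 494 and 919 (4.85-fold lower, adjusted p = 0.0129). All 3 of these genes kept every CD103 DC library under every CD11b DC library.

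Gzmb was the 1 call among 31 cytotoxic granule genes in the fit of all 8 libraries, and their median log2 fold change was -0.11. In the fit of 5 libraries 4 of the 31 passed as lower and 0 as higher, where 0.857% of all genes passed as lower. Serpinb9b, a granzyme inhibitor of the serpin family, was near 0 with CD103+ DC (5.9, 0.9 and 0.0) and stood at 95.0 and 95.6 with CD11b+ DC, with an adjusted p of 0.0550, just above the threshold. Klrd1, the CD94 chain of killer lectin receptors, had 3701, 3971 and 3468 against 6353 and 7032 (-0.85, adjusted p = 0.120). Gzma had 16.8, 48.6 and 12.1 against 121 and 319 (adjusted p = 0.156). Prf1, the pore-forming perforin, had 113, 120 and 92.3 against 56.4 and 171, with overlapping groups. Tbx21, the factor T-bet of effector differentiation, had 254, 346 and 170 against 470 and 417 and did not pass (adjusted p = 0.427). Eomes, Tcf7 and Il2 overlapped between the groups. The 10 natural killer cell markers, among them Gzma and Eomes, summed to 1421 to 1840 in the CD103 DC libraries and 1804 to 1826 in the CD11b DC libraries. Of their 6 tested members 5 lay below 0 (median log2 fold change -0.69) and 3 did not overlap in that direction, beside 14.2% of all genes tested. They held 0 calls, and 1, Gzma, passed as lower in the fit of 5 libraries, where 0.857% of all genes did. Ncr1, Klra4, Klra7 and Klra8 were at 0 in all 5 libraries, and the part of natural killer cells in the effector results was not tested.

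Of 30 tested cytokine and chemokine genes 0 passed in the fit of all 8 libraries. Their median log2 fold change was 0.43 with 20 of 30 above 0, beside 49.0% of all genes tested. In the fit of 5 libraries 2 passed as higher and 0 as lower, where 0.953% and 0.857% of all genes did. Ifng, the interferon of cytotoxic T cells, gave 162 reads over the CD103 DC libraries (53.3, 51.4 and 49.4 normalised counts) and 0 reads over the CD11b DC libraries. Taking 3 reads over the CD11b DC group as the limit that a count of 0 allows, Ifng was at least 34.8-fold higher with CD103+ DC, a bound that covers counting error only. It did not pass in the fit of all 8 libraries (adjusted p = 0.0909) and did in the fit of the 5 (adjusted p = 0.00650). The CD8a DC libraries, which share in the spread of the larger fit, had 2.3, 0.0 and 34.6. Tnfsf4, the costimulatory ligand OX40L, had 297, 283 and 276 against 113 and 103 (1.39, adjusted p = 0.120). It passed in the fit of the 5 libraries (adjusted p = 0.0373). Tnfsf11, the ligand RANKL, had 164, 91.5 and 106 against 28.7 and 26.4 (2.05, adjusted p = 0.185). It did not pass in the fit of the 5 (adjusted p = 0.0747) and did in DESeq2 (adjusted p = 0.00726). Tnf had 214, 373 and 240 against 146 and 114, and Lta had 432, 397 and 414 against 241 and 223, without passing. Cd40lg, the ligand of CD40, had 122, 117 and 185 against 33.1 and 45.1 and did not pass (adjusted p = 0.586).

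**Figure D3:**
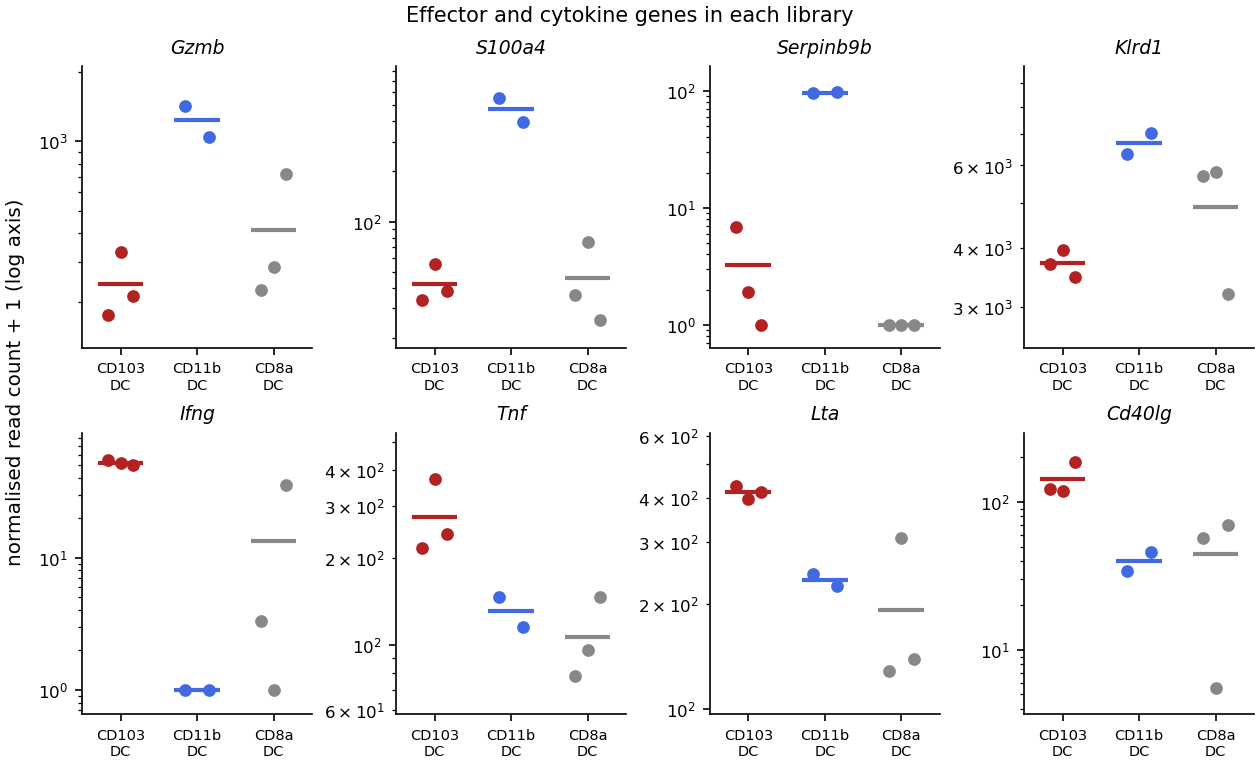
Each panel is an effector or cytokine gene, with normalised read count + 1 on a log axis, a point for each library and a bar at the group mean, for T cells primed by CD103+, CD11b+ and CD8a+ DC. Gzmb and S100a4 passed as lower in the CD103 DC group, and the other 6 genes did not pass in the fit of all 8 libraries although the CD103 DC and CD11b DC libraries do not overlap in any panel.

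Receptors that sense cytokines were lower at 2 called genes. Ifngr1, the ligand-binding chain of the interferon gamma receptor, had 4598, 4125 and 3282 in the CD103 DC libraries, against 9577 and 9678 in the CD11b DC libraries (2.43-fold lower, log2 fold change -1.28, SE 0.18, adjusted p = 0.0120). Il4ra, the alpha chain of the interleukin 4 receptor, had 1775, 1459 and 1633 against 3115 and 3421 (2.02-fold lower, adjusted p = 0.0139). Il18rap, a chain of the interleukin 18 receptor, had 1064, 1131 and 1056 against 257 and 567 and missed the threshold (log2 fold change 1.50, adjusted p = 0.0521). Of 41 genes on the cytokine receptor and STAT5 target list, 0 rose and 2 fell in the fit of all 8 libraries. In the fit of 5 libraries 2 rose and 3 fell, where 0.953% and 0.857% of all genes did. Il2ra overlapped between the groups, with 977, 482 and 561 against 774 and 794.

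Interferon-stimulated genes lay mostly below 0 without any call. Of 33 interferon gamma response genes 28 had a log2 fold change below 0, and their median was -0.32, beside a median of -0.00 and a lower quartile of -0.37 over all genes tested. In 21 of the 33 every CD103 DC library lay below every CD11b DC library, against 14.2% of all genes tested. Gbp4, a guanylate-binding GTPase, had 5108, 4515 and 4558 in the CD103 DC libraries and 6763 and 6774 in the CD11b DC libraries (log2 fold change -0.52, adjusted p = 0.161). Of 53 type I interferon response genes 42 lay below 0, with a median of -0.33, and 21 did not overlap in that direction. The member nearest to a call was Ifi209, a DNA-sensing family protein, with 2564, 2366 and 2171 against 3818 and 4243 (-0.77, adjusted p = 0.0550). With only the 5 libraries in the fit, 4 interferon gamma and 5 type I interferon genes passed as lower and 0 as higher, where 0.857% of all genes passed as lower.

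Cell division genes called with CD103+ DC rose by 1.39- to 2.17-fold. Of 84 mitosis genes 4 rose and 0 fell, and 79 had a log2 fold change above 0, beside 49.0% of all genes tested; the median was 0.43. In 64 of the 84 every CD103 DC library lay above every CD11b DC library, beside 14.0% of all genes. Top2a, the topoisomerase that untangles chromosomes, had 28716, 29842 and 29179 in the CD103 DC libraries, against 18753 and 20863 in the CD11b DC libraries (1.48-fold higher, log2 fold change 0.56, SE 0.09, adjusted p = 0.0146). Mki67, the proliferation antigen Ki-67, had 62462, 58868 and 59643 against 44278 and 42285 (1.39-fold higher, adjusted p = 0.0376). Foxm1, the transcription factor that drives mitotic genes, had 3958, 3858 and 4534 against 2229 and 2627 (1.70-fold higher, adjusted p = 0.0290). Incenp, the scaffold of the chromosomal passenger complex, had 3597, 3431 and 4261 against 2166 and 2175 (1.73-fold higher, adjusted p = 0.0290).

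Of 64 DNA replication genes 1 rose, Clspn, and 59 lay above 0, beside 49.0% of all genes tested, with a median of 0.41. In 41 of the 64 every CD103 DC library lay above every CD11b DC library, beside 14.0% of all genes. Clspn, the replication fork protein claspin, had 2375, 3073 and 2390 in the CD103 DC libraries against 1425 and 1483 in the CD11b DC libraries (1.78-fold higher, adjusted p = 0.0420). Lig1, the ligase that joins Okazaki fragments, had 5356, 5320 and 6826 against 3566 and 3494 (log2 fold change 0.71, adjusted p = 0.113). Tcf19, a factor expressed at the entry to S phase, had 977, 882 and 821 against 403 and 417 (2.17-fold higher, adjusted p = 0.0228). In the fit of 5 libraries 21 mitosis and 12 replication genes passed as higher and 0 as lower, where 0.953% of all genes passed as higher. Among the CD8a DC libraries Top2a stood at 30757 to 33530 and Mki67 at 71928 to 83711, above all 5 libraries of the comparison.

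The promoters of Top2a and Mki67 are shown because they are called division genes that rose together. The windows run from 250 bases before to 50 after the transcription start (RefSeq, GRCm38.p6, both genes on the minus strand), at chr11:99024140-99024439 for Top2a and chr7:135716330-135716629 for Mki67. Capitals mark exact matches, on either strand and thus also as reverse complements, to CCAAT, the box bound by NF-Y, and to TTTGAA, the core of the cell cycle homology element.
Top2a: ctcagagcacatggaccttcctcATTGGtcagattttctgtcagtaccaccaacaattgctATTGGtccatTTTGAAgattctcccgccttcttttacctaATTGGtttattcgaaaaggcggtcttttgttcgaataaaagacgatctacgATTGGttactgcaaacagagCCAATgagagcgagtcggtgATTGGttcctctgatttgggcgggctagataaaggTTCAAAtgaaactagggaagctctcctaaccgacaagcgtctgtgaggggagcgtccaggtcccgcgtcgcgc
Mki67: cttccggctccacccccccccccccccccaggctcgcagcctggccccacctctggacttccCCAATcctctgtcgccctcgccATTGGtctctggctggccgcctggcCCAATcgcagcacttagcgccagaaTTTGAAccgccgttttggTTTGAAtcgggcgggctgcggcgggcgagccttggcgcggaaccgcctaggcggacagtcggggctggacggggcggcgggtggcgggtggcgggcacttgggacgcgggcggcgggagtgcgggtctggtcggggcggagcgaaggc
Top2a held 6 CCAAT and 2 TTTGAA matches and Mki67 3 and 2, with no overlap between matches. The windows of Clspn and Tcf19, not shown, held 2 and 3 CCAAT matches and 0 TTTGAA matches. Foxm1 and Incenp had no window. CCAAT occurred in 37.4% and TTTGAA in 17.9% of 32851 RefSeq promoter windows of that length, and among the 20 called higher genes with a window CCAAT occurred in 10 and TTTGAA in 3. A match describes letters in the window and is not a bound site.

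**Figure D4:**
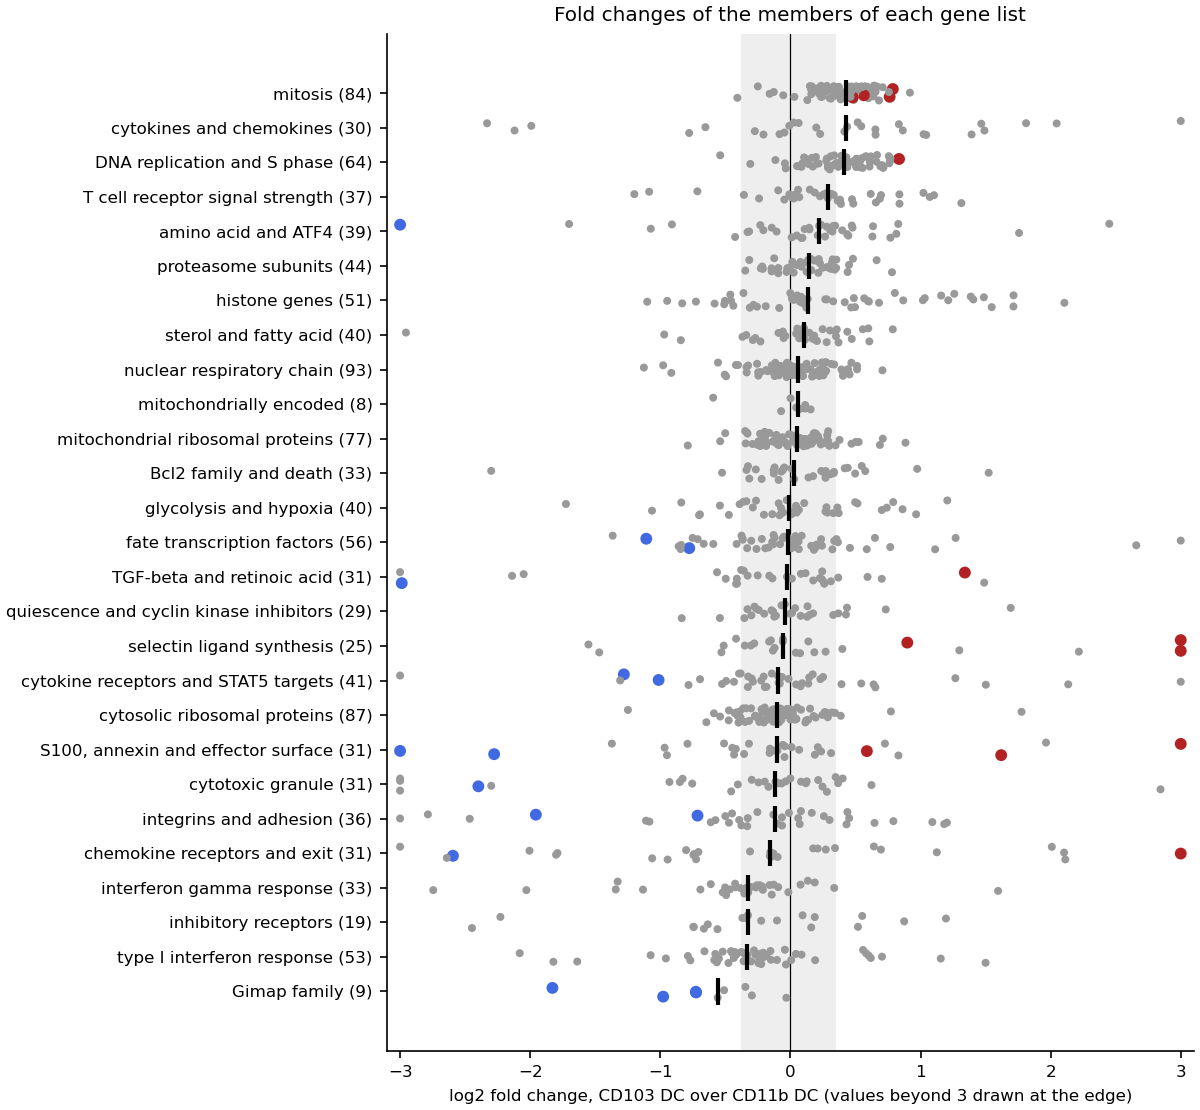
Each row is a functional gene list with the number of members tested, each point a member at its log2 fold change, CD103 DC over CD11b DC, and each black bar the list's median. Red points passed as higher and blue points as lower, and the grey band holds the middle quartiles of all genes tested. Mitosis and DNA replication have medians of 0.43 and 0.41, the interferon lists -0.32 and -0.33 and the Gimap family -0.56.

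The Gimap genes, GTPases of immunity-associated proteins that act in lymphocyte survival, were lower with CD103+ DC. Of 9 measured members (8 genes and the antisense Gimap1os) 4 fell and 0 rose, beside 0.200% and 0.132% of all genes tested. All 9 had a log2 fold change below 0 with a median of -0.56, beside 9517 of the 18971 genes tested below 0. Gimap4 (ENSMUSG00000054435) had 16303, 14790 and 13840 in the CD103 DC libraries, against 28305 and 30615 in the CD11b DC libraries (1.97-fold lower, log2 fold change -0.98, SE 0.10, adjusted p = 0.00139). Gimap7 had 732, 887 and 832 against 2443 and 3433 (3.55-fold lower, -1.83, SE 0.25, adjusted p = 0.0120). Gimap6 was 1.65-fold lower (adjusted p = 0.0145) and Gimap3 1.66-fold lower (adjusted p = 0.0476). Gimap8 (log2 fold change -0.51) and Gimap5 (-0.30) did not pass, although in 8 of the 9 members every CD103 DC library lay below every CD11b DC library, beside 14.2% of all genes tested. The genes are a family of near neighbours, and how reads that match more than 1 member were counted is not given in the sources used here.

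The 4 called Gimap genes lie in a row on chromosome 6 (GRCm38), at 48684549 to 48692060 for Gimap4, 48701582 to 48708225 for Gimap6, 48718621 to 48724636 for Gimap7 and 48764464 to 48770851 for Gimap3, with gaps of 9522, 10396 and 39828 bases. Promoter windows of Gimap4 and Gimap7 are shown as those of the called members with the smallest adjusted p (RefSeq, GRCm38.p6, plus strand, chr6:48684328-48684627 and chr6:48718371-48718670). Capitals mark exact matches, on either strand, to ACCACA, the core bound by Runx factors, and to AGGTCA, a half-site of retinoid and other nuclear receptors.
Gimap4: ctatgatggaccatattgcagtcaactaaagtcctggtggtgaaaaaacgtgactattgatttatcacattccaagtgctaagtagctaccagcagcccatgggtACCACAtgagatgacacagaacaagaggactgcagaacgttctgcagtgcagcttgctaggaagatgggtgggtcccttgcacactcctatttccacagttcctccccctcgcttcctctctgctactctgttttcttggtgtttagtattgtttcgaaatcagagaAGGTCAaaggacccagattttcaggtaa
Gimap7: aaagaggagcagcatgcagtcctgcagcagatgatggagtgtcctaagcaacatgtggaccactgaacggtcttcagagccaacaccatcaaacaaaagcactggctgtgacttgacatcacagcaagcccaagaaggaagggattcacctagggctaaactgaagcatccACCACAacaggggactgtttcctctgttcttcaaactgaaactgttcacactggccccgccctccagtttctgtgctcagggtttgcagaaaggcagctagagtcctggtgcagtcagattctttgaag
Gimap4 held 1 match to each and Gimap7 1 to ACCACA, with no overlap between matches. The windows of the other called members, Gimap6 and Gimap3, held 0 matches to either. ACCACA occurred in 16.8% and AGGTCA in 16.3% of 32851 windows, and among the 31 called lower genes with a window they occurred in 6 and 2.

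Other surface, signalling and gene control genes were lower with CD103+ DC. Art2b, an ADP-ribosyltransferase tethered to the T cell surface, had 158, 136 and 204 in the CD103 DC libraries against 797 and 835 in the CD11b DC libraries (4.95-fold lower, adjusted p = 0.0120). Slc7a11, the cystine transporter xCT, had 13.8, 31.8 and 28.9 against 345 and 191 (10.6-fold lower, adjusted p = 0.0233) and was the 1 call on the amino acid and ATF4 list of 39 genes, whose median was 0.22. Its spread within the CD11b DC group was wide, yet the lower of the 2 libraries was well above every CD103 DC library. Psat1, an enzyme of serine synthesis on that list, had 4268, 4386 and 4551 against 2636 and 2375 and missed the threshold (0.81, adjusted p = 0.0598). In the fit of 5 libraries Psat1 passed (adjusted p = 0.00199). In that fit 3 genes of the list rose and 2 fell, where 0.953% and 0.857% of all genes did.

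Gfi1, a transcriptional repressor of lymphocytes, had 416, 363 and 300 in the CD103 DC libraries against 966 and 913 in the CD11b DC libraries (2.63-fold lower, adjusted p = 0.0127). Klf3, a Kruppel-like repressor, was 2.15-fold lower (adjusted p = 0.0228), and Ikzf3, the Ikaros family factor Aiolos, was 1.71-fold lower, at 10396, 7619 and 9110 against 15412 and 15340 (adjusted p = 0.0146). Klf3 and Ikzf3 were the 2 calls among 56 fate transcription factors, whose median was -0.01. In the fit of 5 libraries 0 of the 56 rose and 3 fell, where 0.953% and 0.857% of all genes did. Smim24, a small membrane protein, was 2.83-fold lower (adjusted p = 0.0173), and Prrt1, a transmembrane protein, 3.43-fold lower (adjusted p = 0.0194). Further called genes outside the naming rule, mentioned after their values were seen, were Acp5 (an acid phosphatase, 2.15-fold lower), Ctla2a (a cysteine protease inhibitor, 2.22-fold lower), Rasgrp2 (an activator of Rap1, 1.71-fold lower) and Lyst (a regulator of lysosomes, 1.74-fold lower).

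Inhibitory receptors gave 0 calls among 19 genes in the fit of all 8 libraries, with a median log2 fold change of -0.33. In the fit of 5 libraries 1 passed as higher and 4 as lower, where 0.953% and 0.857% of all genes did. Ctla4, the receptor that competes with CD28 for its ligands, had 5091, 5701 and 4959 in the CD103 DC libraries and 8483 and 8142 in the CD11b DC libraries (-0.67, adjusted p = 0.0605). Lag3 had 891, 899 and 1038 against 1489 and 1663 (-0.74, adjusted p = 0.0896). Pdcd1, which encodes PD-1, lay the other way, with 169, 150 and 173 against 71.7 and 70.3 (adjusted p = 0.258). The groups did not overlap for any of these, and none passed in the fit of all 8 libraries. Of 37 genes that report T cell receptor signal strength 0 passed and 29 lay above 0, beside 49.0% of all genes tested, with a median of 0.29. Of the 37, 17 did not overlap as higher and 5 as lower, beside 14.0% and 14.2% of all genes. In the fit of 5 libraries 2 passed as higher and 1 as lower. Cd69, an early activation marker, had 597, 686 and 787 against 277 and 410 (1.02, adjusted p = 0.144). It passed in the fit of 5 libraries (adjusted p = 0.0422). Jun had 286, 196 and 232 against 512 and 574 (-1.20, adjusted p = 0.136).

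Several genes called higher with CD103+ DC belong to none of the functional lists. Sema6d, a transmembrane semaphorin, had 2925, 2552 and 3783 in the CD103 DC libraries against 613 and 487 in the CD11b DC libraries (5.57-fold higher, log2 fold change 2.48, SE 0.31, adjusted p = 0.00626). Maged1, an adaptor of the melanoma antigen family, had 228, 336 and 407 against 31.4 and 23.1 (11.3-fold higher, 3.50, SE 0.42, adjusted p = 0.00547). Both sets lay far apart, and Sema6d stood at 545, 640 and 267 and Maged1 at 215, 167 and 136 in the CD8a DC libraries. Wnt10a, a Wnt ligand, was 6.83-fold higher (adjusted p = 0.0127), Hemgn, a nuclear protein of blood cells, 5.65-fold higher (adjusted p = 0.0120), Acsl3, an enzyme that activates fatty acids, 3.42-fold higher (adjusted p = 0.0344) and Armcx4 2.57-fold higher (adjusted p = 0.0126). Acsl3 overlaps Utp14b on the same strand.

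Of 31 S100, annexin and effector surface genes Lmna, Capg and Vim rose and S100a4 and Plac8 fell, with a median log2 fold change of -0.10 and 19 of 31 below 0. In the fit of 5 libraries 3 rose and 4 fell, where 0.953% and 0.857% of all genes did. Lmna, which encodes lamins A and C of the nuclear lamina, had 545, 641 and 751 in the CD103 DC libraries against 151 and 38.5 in the CD11b DC libraries (8.26-fold higher, adjusted p = 0.0120). Its log2 fold change of 3.05 was 4.02 without CD11b DC replicate 2 and 2.07 without replicate 3. Capg, an actin-capping protein, had 784, 673 and 621 against 301 and 166 (3.07-fold higher, adjusted p = 0.0228), and Vim, vimentin, had 7266, 7799 and 8352 against 4922 and 5463 (1.50-fold higher, adjusted p = 0.0425).

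Zfp318, a nuclear protein known from B cells to be needed for IgD transcripts, had 2310, 2346 and 2576 in the CD103 DC libraries against 1189 and 1018 in the CD11b DC libraries (2.19-fold higher, adjusted p = 0.0127). Ighd, the IgD constant region, had 1791, 1902 and 1786 against 759 and 714 (2.48-fold higher, adjusted p = 0.0120). Ighm, the IgM constant region, lay the other way, with 19849, 17296 and 17415 against 21104 and 21881, and did not pass (-0.24, adjusted p = 0.585). The 12 B cell markers summed to 19526 to 22006 in the CD103 DC libraries and 22284 to 23038 in the CD11b DC libraries, Pax5 and Blk were at 0 in all 5 libraries, and Cd22 had 28.6, 112 and 160 against 0.9 and 6.6. The part of B cells in the Ighd result was not tested.

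Some calls were of genes that DC express, and in a culture with DC fewer cells of a type and less RNA per cell cannot be told apart. H2-Aa, the alpha chain of the MHC class II molecule I-A, had 412, 280 and 499 in the CD103 DC libraries, against 48.4 and 57.1 in the CD11b DC libraries (7.23-fold higher, adjusted p = 0.0120). Its partner H2-Ab1 had 37.5, 56.0 and 43.8 against 168 and 44.0, and H2-Eb1 had 39.5, 77.5 and 25.2 against 32.3 and 20.9, and neither passed. Cd74, the invariant chain, had 991, 861 and 1079 against 412 and 414 (1.23, adjusted p = 0.380). H2-Ob, a chain of the class II peptide-loading modulator H2-O, was lower, with 230, 172 and 270 against 603 and 680 (2.90-fold lower, adjusted p = 0.0465), and lies 36837 bases from H2-Aa on chromosome 17.

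Sirpa, a receptor for CD47 that marks CD11b+ DC among the subsets, gave 2 reads over the CD103 DC libraries and 102 over the CD11b DC libraries, a ratio per unit of depth of 79.0, CD11b DC over CD103 DC (95% interval 21.3 to 662, counting error only; adjusted p = 0.0476 in limma-trend and 0.185 in edgeR, which did not call it). Of the other listed markers of that subset, Clec10a, Cd209a, Mgl2 and Clec4a4 were at 0 in all 5 libraries, and Itgam had 5.9, 75.7 and 3.7 against 52.9 and 14.3. The listed markers of that subset summed to 1542 to 1647 in the CD103 DC libraries and 1089 to 1553 in the CD11b DC libraries, ranges that overlap, with most of the sum from Irf4, a factor of activated T cells too (1532, 1543 and 1501 against 959 and 1286, not passing). Ccl17, a chemokine of activated DC, had 0.0, 1.9 and 16.8 against 157 and 68.1 (adjusted p = 0.156), and Ccl22 had 2713, 2632 and 3175 against 5910 and 4132 (adjusted p = 0.408). The 10 markers of the CD103 DC subset summed to 10008 to 11535 in the CD103 DC libraries and 8211 to 8797 in the CD11b DC libraries, of which Itgae, a gene of the T cells too, made the largest share, and Tlr3 was at 0. Dab2, an endocytic adaptor, gave 0 reads against 60 (at least 31.0-fold lower), and Muc19, a mucin, gave 124 reads against 0 (at least 26.7-fold higher), both outside the naming rule and mentioned after their values were seen. Neither was called by edgeR (adjusted p = 0.205 for Dab2 and 0.148 for Muc19). Among the CD4 and regulatory T cell markers given above, Foxp3 had 132, 85.0 and 113 against 18.8 and 35.2 and was not called. The part of these cells in the results above was not tested.

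**Figure D5:**
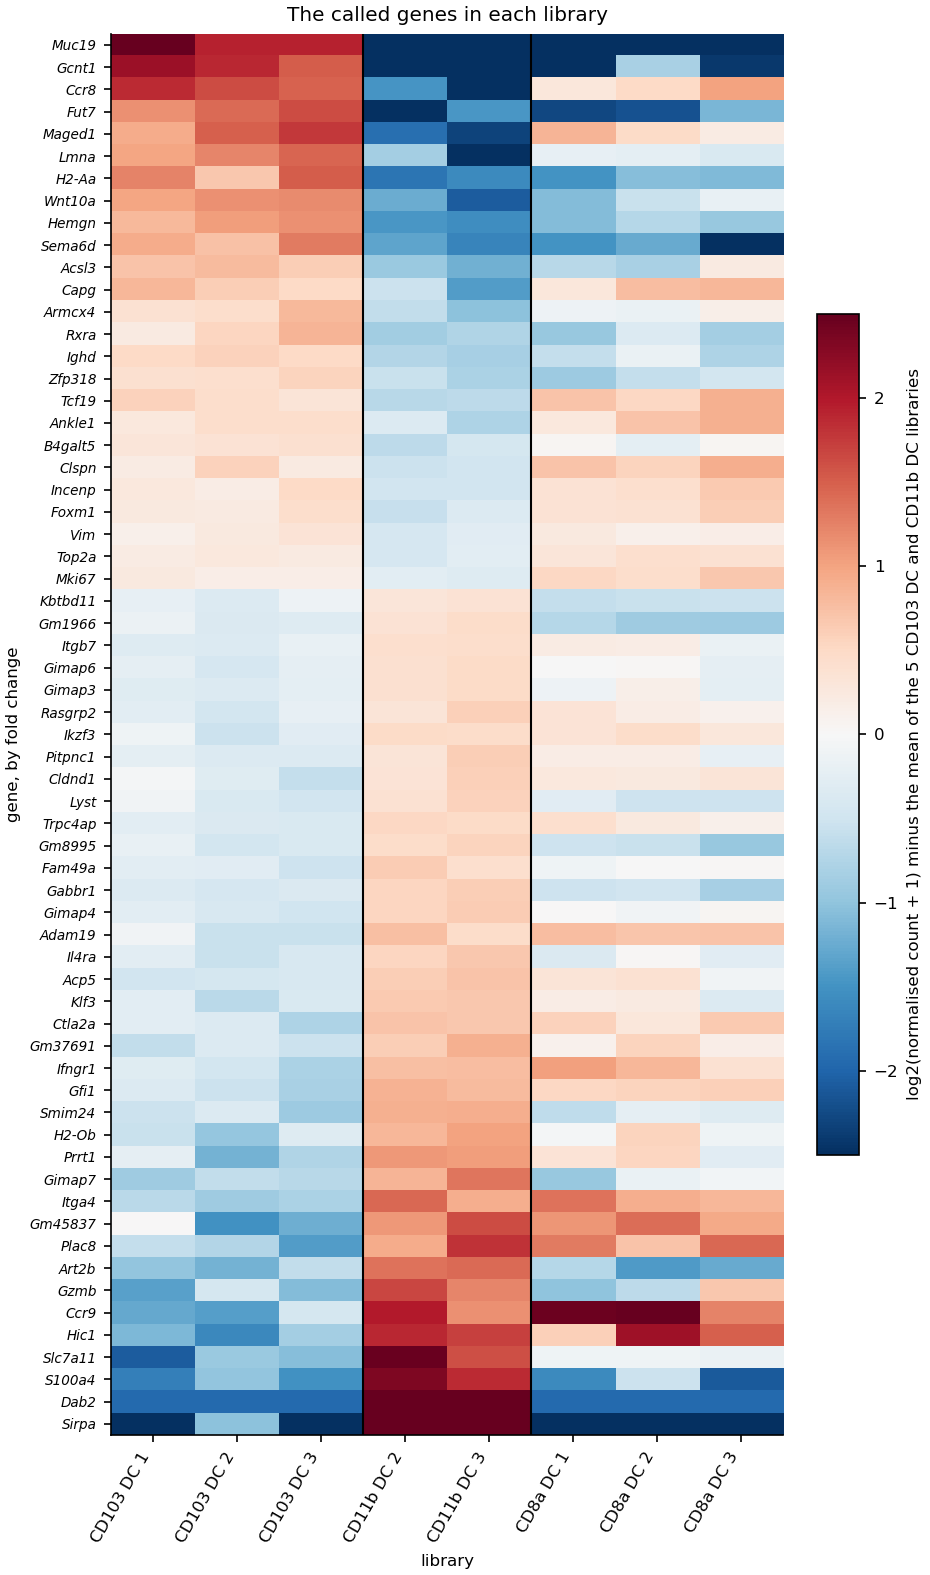
Each row is a called gene, ordered by fold change, and each column a library of the CD103 DC, CD11b DC or CD8a DC group. Colour is log2(normalised count + 1) minus the mean of the 5 CD103 DC and CD11b DC libraries, red above and blue below it, with values beyond 2.5 drawn at the end of the scale. The 25 genes that were higher and the 38 that were lower with CD103+ DC form separate blocks, and the CD8a DC columns resemble the CD103 DC columns for some genes (Art2b, S100a4) and the CD11b DC columns for others (Itga4, Hic1).

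Across the called genes the CD8a DC libraries fell on either side, given here as values with no test. Gzmb had 225, 285 and 722 and S100a4 35.2, 74.4 and 24.4 in the CD8a DC libraries, and Art2b had 190, 116 and 130. Itga4 had 11722, 8594 and 8069, Ccr9 had 1822, 2008 and 787 and Hic1 had 203, 581 and 377. The CD8a DC libraries of S100a4 and Art2b thus lay below both CD11b DC libraries, and those of Itga4, Ccr9 and Hic1 above all 3 CD103 DC libraries.

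Housekeeping programmes gave no call in the fit of all 8 libraries. In the fit of 5 libraries 1 respiratory chain gene and 1 proteasome subunit passed as higher. Of the glycolysis and hypoxia genes 1 passed as higher and 1 as lower in that fit. Of all genes 0.953% passed as higher and 0.857% as lower there. The medians of the log2 fold change were -0.10 over 87 cytosolic ribosomal protein genes, 0.05 over 77 mitochondrial ribosomal protein genes, 0.06 over 93 nuclear respiratory chain genes, 0.14 over 44 proteasome subunits, -0.01 over 40 glycolysis and hypoxia genes and 0.11 over 40 sterol and fatty acid genes. In 23 of the 44 proteasome subunits every CD103 DC library lay above every CD11b DC library, beside 14.0% of all genes tested. Psmd1, a subunit of the regulatory particle, had 4493, 4036 and 4045 in the CD103 DC libraries against 2854 and 2449 in the CD11b DC libraries (log2 fold change 0.66, adjusted p = 0.184). It passed in the fit of 5 libraries (adjusted p = 0.00908). The lists of Bcl2 family and death genes (33 tested), histone genes (51), quiescence genes (29) and mitochondrially encoded genes (8) also held 0 calls in the fit of all 8 libraries, at medians of 0.03, 0.13, -0.04 and 0.06. In the fit of 5 libraries 1 quiescence gene passed as lower.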

How the data were processed

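RNA from sorted OT-I T cells was sequenced in 8 libraries, of which 5 are compared here. The submitters' processing notes name the build GRCm38, the aligner STAR 2.4.2a and DESeq2. How reads were counted, with which annotation and strand setting, is not given in the sources used here. The values used are, per the file headers, the authors' normalized counts, a signal made by dividing the count of each gene by the library's size factor. The authors also deposited variance-stabilized log2 values, GC percent per gene, and their own comparisons (ratio, log2 ratio, p-value and FDR), none of which entered a test here. The table listed 43432 genes, 759 with no symbol.

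The main test was limma-trend, run in R 4.3.3 with limma 3.58.1, on log2(normalized count + 1) for genes with a mean of at least 1, with 3 group means over all 8 libraries and 5 residual degrees of freedom. The contrast was CD103 DC minus CD11b DC, with Benjamini-Hochberg adjustment over 18971 genes. An exact permutation of 3 against 2 libraries cannot give a p below 0.1, so none was run. Low values were whole multiples of a step in each library, and 100% came out as whole reads within 0.1 of a read. edgeR 4.0.16 (63 calls, 59 shared with limma-trend), DESeq2 1.42.0 and limma-voom on these reads were alternatives. Bounds for genes at 0 take 3 reads over the group. In data simulated for this comparison (18352 genes), the test found 48% of 100 genes altered 2-fold and 74% of 100 altered 4-fold, and 13 of its 135 calls were wrong. The altered genes were drawn only from those with higher counts, so these rates do not cover genes near the minimum mean of 1.

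The members and the 27 functional and 12 marker lists were chosen with earlier results of these data known. Named were, in each direction, up to 15 called genes with the largest fold change among those that averaged at least 50 in the higher group and whose groups did not overlap (passing over predicted genes and receptor segments), every called list member, the 3 members of each list with the smallest adjusted p, and 11 standing genes (Cd8a, Itgae, Pdcd1, Tcf7, Eomes, Tbx21, Il2, Il2ra, Ifng, Prf1 and Gzmb). Marker genes, Ighd and any other gene outside this rule (Selplg, Gcnt4, Ccr4, S1pr1, Gzma, Tnf, Lta and Cd40lg among them) were chosen after their values were seen. Replicate numbers were not used to pair the libraries in the main test.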

Additional observations from a re-analysis of the deposited data

How the results depend on the processing

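The direction of all 63 called genes was kept in every alternative in which they were tested. The 25 higher and 38 lower calls became 20 to 30 and 34 to 52 with library size or TMM scaling, a pseudocount of 0.5 or 5, a mean of at least 10, no filter, edgeR and limma-voom. DESeq2 on the recovered reads called 200 higher and 167 lower, and the fit of only the 5 libraries 179 and 161. The authors' deposited table has 189 higher and 150 lower at an adjusted p under 0.05 (58 of the 63 shared, 5 without an adjusted p). The 5 without an adjusted p there were Gzmb, S100a4, Acsl3, Dab2 and Gm45837. Leaving out each library in turn gave 0 to 119 higher and 0 to 119 lower calls; the counts were 0 or 1 higher and 0 to 4 lower without a CD103 DC or CD11b DC library, and 22 to 119 higher and 31 to 119 lower without a CD8a DC library (54 and 58 without replicate 2, 119 and 119 without replicate 3). edgeR called 14, 4 and 6 genes without CD103 DC replicates 1, 2 and 3, and 5 and 1 without CD11b DC replicates 2 and 3, a check added after seeing the data. The cause of these moves was not tested, beyond the fewer libraries in each fit.

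Replicates 2 and 3 share numbers across the groups, and the deviations of same-numbered libraries from their group means correlated at 0.0023 and 0.0164. With 2 CD11b DC libraries these deviations mirror each other, so the correlations cannot decide whether the numbers mark pairs. The main fit did not use the numbers as pairs. With a replicate block 19 genes were higher and 30 lower, 42 of them among the 63. Signs turned for 4 named genes that limma-trend did not call. The log2 fold change of Cd8a was -0.0095 with edgeR and -0.0015 with DESeq2, and -0.10 to 0.10 with a library left out. The log2 fold change of Prf1 was -0.084 with edgeR, -0.072 with DESeq2 and -0.0281 with the replicate block, and -0.67 to 0.92 with a library left out. The log2 fold change of Eomes was -0.035 to 0.23 with a library left out. The log2 fold change of Il2 was 0.20 with a pseudocount of 5, and -1.03 to 1.16 with a library left out. No scaling alternative moved the median of all genes by as much as 0.1 on the log2 scale.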
